A study of Sus scrofa with 2 samples.

Results

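The genes that encode the proteins of ribosomes were examined in RNA sequencing data from the hippocampus of piglets. They were taken by their names: symbols made of RPL or RPS and a digit, with RPLP0, RPLP1, RPLP2 and RPSA and without the RPS6K kinases, formed the cytosolic class, and symbols starting with MRPL or MRPS formed the mitochondrial class. Of 25322 gene IDs, 11804 carried a symbol and 72 were members, 28 cytosolic and 44 mitochondrial. RPLP0 and RPSA had no ID paired with that name. RPS21 and RPL10L, 2 members, were listed at 0 in both samples, and no member was listed at 0 in only 1 sample.

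The study compared hippocampus, the part of the forebrain that lays down new memories, from Rongchang piglets given iron dextran with the same tissue from control Rongchang piglets. Iron dextran holds iron bound to a polysaccharide and is given by injection to piglets, which are born with small iron stores. Both groups carry the genotype label "wide type", and each was 1 sample whose description lists 2 names without saying whether these were animals, libraries or runs. The sources used here do not give the dose, the age, the sex or how many piglets there were. Values are FPKM, the fragments of a gene per kilobase of its length, scaled to all mapped fragments, so levels can be compared between genes. With 1 sample per group there was no spread between replicates to test against, and every difference below stands without a replicate check.

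Ribosomes build proteins from messenger RNA. The cytosolic ribosome has a small subunit, which reads the message, and a large subunit, which joins amino acids, and its proteins (RPS and RPL) are needed in near-equal numbers, so their messages are among the most abundant in most cells. Their mRNAs start with a pyrimidine tract through which the kinase mTOR and the protein LARP1 control their translation. Mitochondria have a ribosome of their own, related to that of bacteria, whose proteins (MRPS and MRPL) are made from nuclear genes and imported. It makes only the few proteins that mitochondrial DNA encodes, all of them parts of the respiratory chain and the ATP synthase. In neurons, ribosomes also work in dendrites and axons.

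In the FPKM values as deposited, cytosolic ribosomal protein genes lay slightly and nearly uniformly lower in iron dextran than in control. The difference used throughout is log2(FPKM + 1) in iron dextran less that in control. Tested genes are those whose FPKM averaged 1 or more over both samples. Among the 26 tested cytosolic members 24 lay below 0, with a median of −0.14 and quartiles of −0.17 and −0.12. Over all 12557 genes tested the median was −0.0046, and 51% lay below 0. Mitochondrial members were less uniform: 27 of 43 lay below 0, with a median of −0.04 and quartiles of −0.15 and 0.07. No cytosolic member was at least 1.5-fold lower or higher, and 1 mitochondrial member, MRPL22, was at least 1.5-fold lower. In the background, 1.47% of all genes tested were lower by that much and 2.47% higher. At 1.2-fold, 1 cytosolic member was lower and none higher, and 3 mitochondrial members were lower and 2 higher, where the background was 8.98% lower and 12.5% higher. At 2-fold no member of either class was lower or higher, against 0.422% of all genes tested lower and 0.741% higher.

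These directions depend on the scale. FPKM summed to 850165 in iron dextran and 924070 in control, and scaling both columns to the same total shifts the median of all genes tested by 0.11. On that scale 19 of 26 cytosolic members still lay below 0, with a median of −0.02, where 28% of all genes tested did, while the mitochondrial median turned to 0.08, with 14 of 43 below 0. Such scaling shifts every gene by nearly the same amount, so it could hardly change the distance between the classes. The cytosolic median minus the mitochondrial median was −0.11 as deposited and −0.10 with equal totals. It was −0.03 after the median of genes of like level was subtracted. As a share of all FPKM, the cytosolic members took 1.69% in iron dextran and 1.71% in control, and the mitochondrial members took 0.210% and 0.203%.

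In the values as deposited, abundant genes in general lay lower in iron dextran than scarce ones did. Among genes that are not members, the median difference was 0.05 for a mean FPKM from 1 to under 10, −0.03 from 10 to under 100, −0.08 from 100 to under 200, −0.10 from 200 to under 500 and −0.12 from 500 to under 3000. The medians of cytosolic members lay below those of other genes in each of the 3 upper ranges. They were −0.18 over 3 genes from 100 to under 200 FPKM, −0.15 over 8 genes from 200 to under 500, and −0.14 over 12 genes from 500 to under 3000. Within the range of level of the tested core cytosolic genes (those that are not paralogs), 84.6% of 467 other genes lay below 0, with a median of −0.10, against 21 of 22 core members. With equal totals 197 of these 467 other genes lay below 0, with a median of 0.02. Core members of the large and small subunits then had medians of −0.02 and −0.03. The median of all 26 tested cytosolic members, paralogs included, was −0.02. The quartiles of the other genes as deposited were 0.12 log2 units apart and those of the core members 0.05. After the median of genes of like level was subtracted, 21 of 26 cytosolic and 25 of 43 mitochondrial members lay below 0, against 50% of all genes tested. The cytosolic median was then −0.05, and the distance between the class medians was −0.03. Mitochondrial members had values close to those of other genes of their level: in their range 56.6% of 6742 other genes lay below 0, with a median of −0.03 and quartiles 0.21 log2 units apart, where the members' quartiles were 0.22 apart. With equal totals 1812 of these 6742 genes lay below 0, with a median of 0.09.

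**Figure D1:**
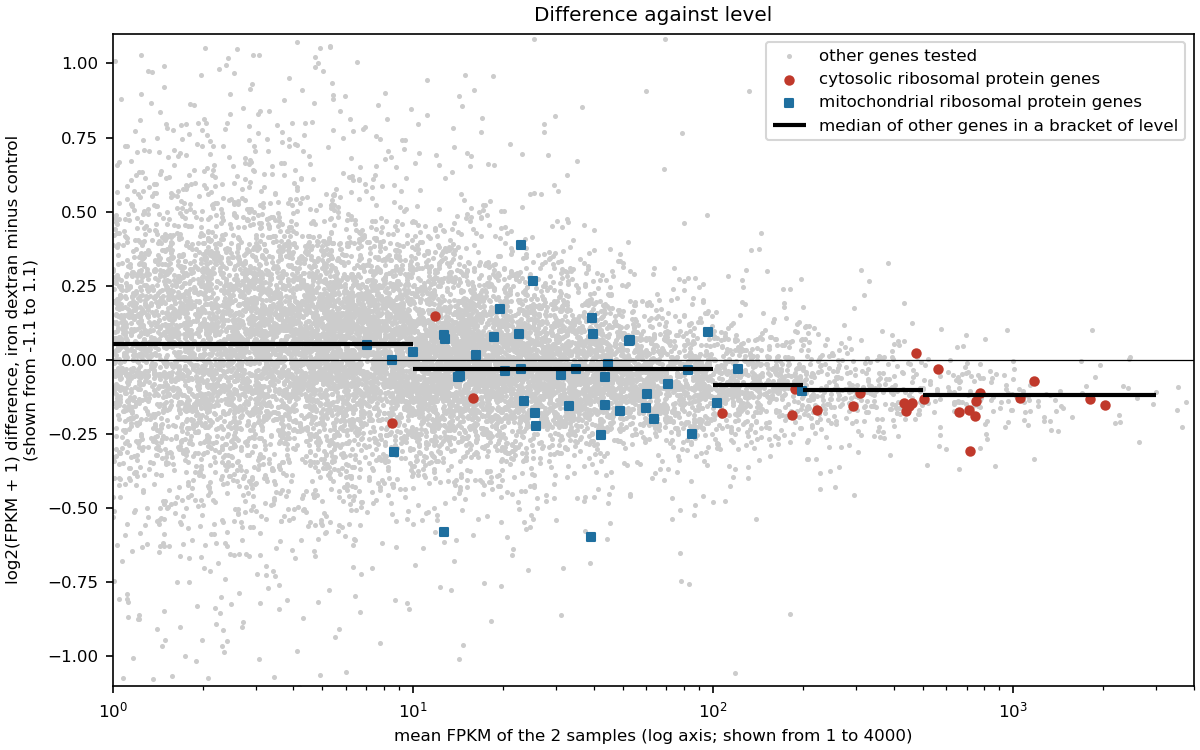
Difference of log2(FPKM + 1), iron dextran less control, against the mean FPKM of the 2 samples on a log axis; each point is a gene, red circles are cytosolic and blue squares mitochondrial members, and black bars are medians of other genes in a range of level. The bars descend from 0.05 to −0.12, and most cytosolic members lie at or a little below them.

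In bulk tissue, fewer cells of a type and less RNA per cell cannot be told apart. Markers of several cell types differed between the samples, and their part in the ribosomal protein values was not tested. Summed FPKM of the red cell markers (3 of 3 with an ID) was 519 in iron dextran and 189 in control, and that of microglial markers (3 of 4) was 38.1 and 22.7. Oligodendrocyte markers (5 of 5) summed to 7629 in iron dextran and 8724 in control as deposited. Neuronal markers (4 of 5) summed to 2350.04 and 2498, and astrocyte markers (3 of 4) to 1303 and 1404. As a share of all FPKM, neuronal markers took 0.276% in iron dextran and 0.270% in control, and astrocyte markers 0.153% and 0.152%. Neither was thus lower in iron dextran as a share, while oligodendrocyte markers stayed lower, at 0.897% and 0.944%. GFAP carried the astrocyte sum (1145 FPKM in iron dextran and 1275 in control), and the other astrocyte markers were higher in iron dextran, SLC1A3 with 143 and 116 FPKM and SLC1A2 with 15.7 and 12.8. Choroid plexus markers (3 of 3) summed to 26.1 in iron dextran and 21.3 in control, endothelial markers (1 of 3) to 14.9 and 16.9, and meningeal markers (2 of 3) to 8.88 and 12.3. None of these markers was listed at 0. Neuronal and glial markers were thus abundant, as brain tissue has them. Of 6 genes of hippocampal neurons 3 had an ID, and C1QL3 had 16.5 FPKM in iron dextran and 11.5 in control, while PROX1 (0.858 and 0.761) and ZBTB20 (0.0820 and 0.150) were low, so the region itself was not firmly marked.

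Messages of the small cytosolic subunit included the most abundant members. RPS28 (ENSSSCG00000013597), which sits where mRNA leaves the small subunit, had 1919 FPKM in iron dextran and 2134 in control. RPS12 (ENSSSCG00000004177), of the beak of the small subunit, had 1725 FPKM in iron dextran and 1889 in control. RPS3, which lines the channel where mRNA enters, had 1008.5 FPKM in iron dextran and 1104 in control. All were lower in iron dextran by about the class median, with log2 differences of −0.15, −0.13 and −0.13. Near the decoding site, RPS9 had 700.1 FPKM in iron dextran and 798 in control, and RPS23 had 209 and 235. RPS18, of the head of the subunit, had 671 FPKM in iron dextran and 755 in control. RPS13 had 171 FPKM in iron dextran and 195 in control. These 4 genes had differences between −0.19 (RPS9) and −0.17 (RPS18). RPS3A and RPS4X lay nearer 0: RPS3A had 413 FPKM in iron dextran and 456 in control, and RPS4X, the X-linked member, had 484 and 529.9. RPS16 (ENSSSCG00000020817), whose tail reaches the decoding centre, was the 1 tested core member above 0, with 481 FPKM in iron dextran and 473 in control. Of 13 tested core genes of the small subunit, paralogs left out, 12 lay below 0, with a median of −0.15. RPS21, a core protein of the same subunit that every cell uses, was listed at 0 in both samples, so a 0 here need not mean that a gene is silent.

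Messages of the large cytosolic subunit included the core member with the lowest difference. RPL38 (ENSSSCG00000017239), a small protein whose loss in mice disturbs patterning of the skeleton, had 644 FPKM in iron dextran and 796 in control, a ratio of 0.808. Its log2 difference of −0.31 was the lowest of the class, and RPL38 was the 1 cytosolic member lower by 1.2-fold; it stayed below 0 with equal totals (−0.19) and after centring by level (−0.20). RPL5 and RPL11 form a particle with the 5S ribosomal RNA, and when free they bind MDM2, the ligase that degrades p53. RPL5 (ENSSSCG00000006899) had 558 FPKM in iron dextran and 569.9 in control, and RPL11 had 747 and 807. They lay close together near the upper end of the core class, with differences of −0.03 and −0.11 as deposited and 0.09 and 0.0082 with equal totals. RPLP1 and RPLP2 are the acidic proteins of the stalk that recruits elongation factors. RPLP2 had 1141 FPKM in iron dextran and 1199 in control, and RPLP1 had 715 and 788. RPL4, which reaches into the tunnel through which new protein leaves, had 621 FPKM in iron dextran and 701 in control. RPL27 had 425 FPKM in iron dextran and 474 in control, RPL29 had 437 and 484, and RPL14 had 181 and 194. All 9 tested core genes of the large subunit, paralogs left out, were lower in iron dextran as deposited, with a median of −0.14, and 5 of 9 lay below 0 with equal totals. The subunits therefore differed little, at −0.14 for the large and −0.15 for the small one.

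**Figure D2:**
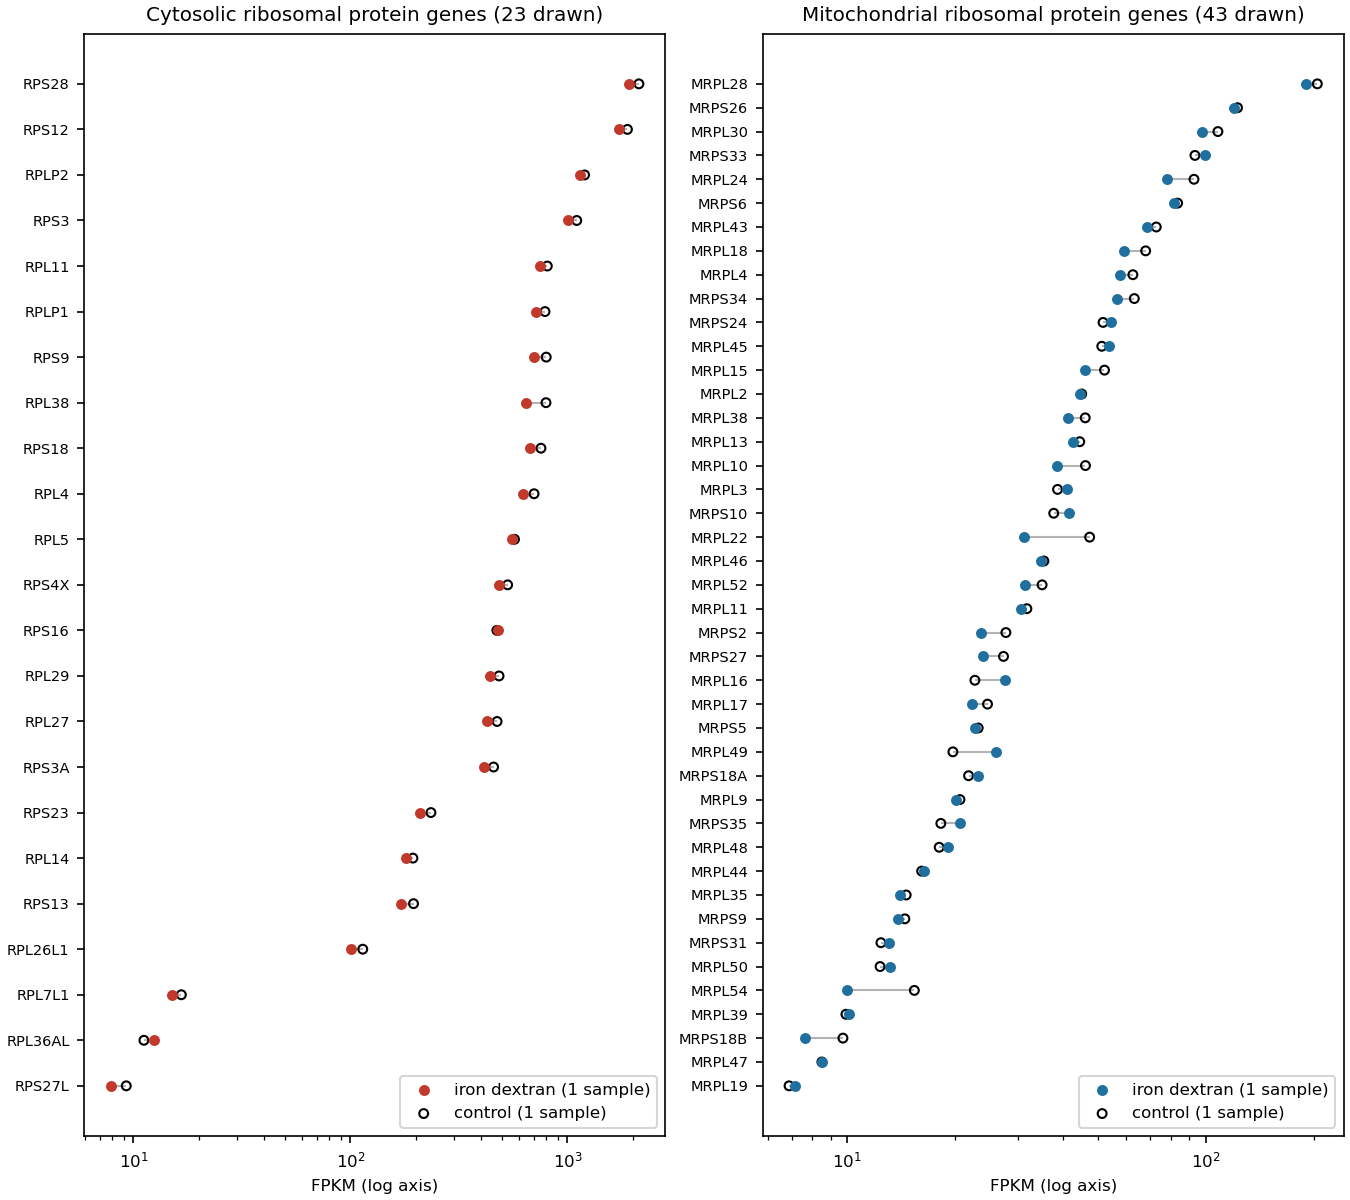
FPKM on a log axis of tested cytosolic members (left, 23 of 26 genes drawn) and mitochondrial members (right, 43 genes), ordered by mean level; filled points are the iron dextran sample and open points the control sample. Cytosolic members run from 7.84 FPKM (RPS27L) to 1919 (RPS28) in iron dextran and from 9.26 to 2134 in control, and mitochondrial members from 7.16 (MRPL19) to 190.2 (MRPL28) and from 6.88 to 205.

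Paralogs of core genes were far less abundant, except RPL26L1. RPL26L1, a near-copy of RPL26, had 100.4 FPKM in iron dextran and 114 in control, but reads shared with RPL26 could be assigned to either gene, so its level is uncertain. RPL7L1, an RPL7 relative with a part in ribosome assembly, had 15.1 FPKM in iron dextran and 16.6 in control, and RPS27L, a p53-induced relative of RPS27, had 7.84 and 9.26. RPL36AL (ENSSSCG00000005006), a copy of RPL36A, was the 1 paralog above 0, with 12.5 FPKM in iron dextran and 11.2 in control. RPL10L, a copy of RPL10 made in the testis in humans and mice, was listed at 0 in both samples. No ID was paired with RPL26, RPL7, RPS27, RPL36A or RPL10, so no paralog could be set against its core gene. The order of levels was nearly the same in both samples: across the 26 tested members Spearman's rho was 0.994, and ranks 1 to 5 were RPS28, RPS12, RPLP2, RPS3 and RPL11 in each. Values of ribosomal protein genes also depend on how reads shared with their many processed pseudogenes were assigned.

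**Figure D3:**
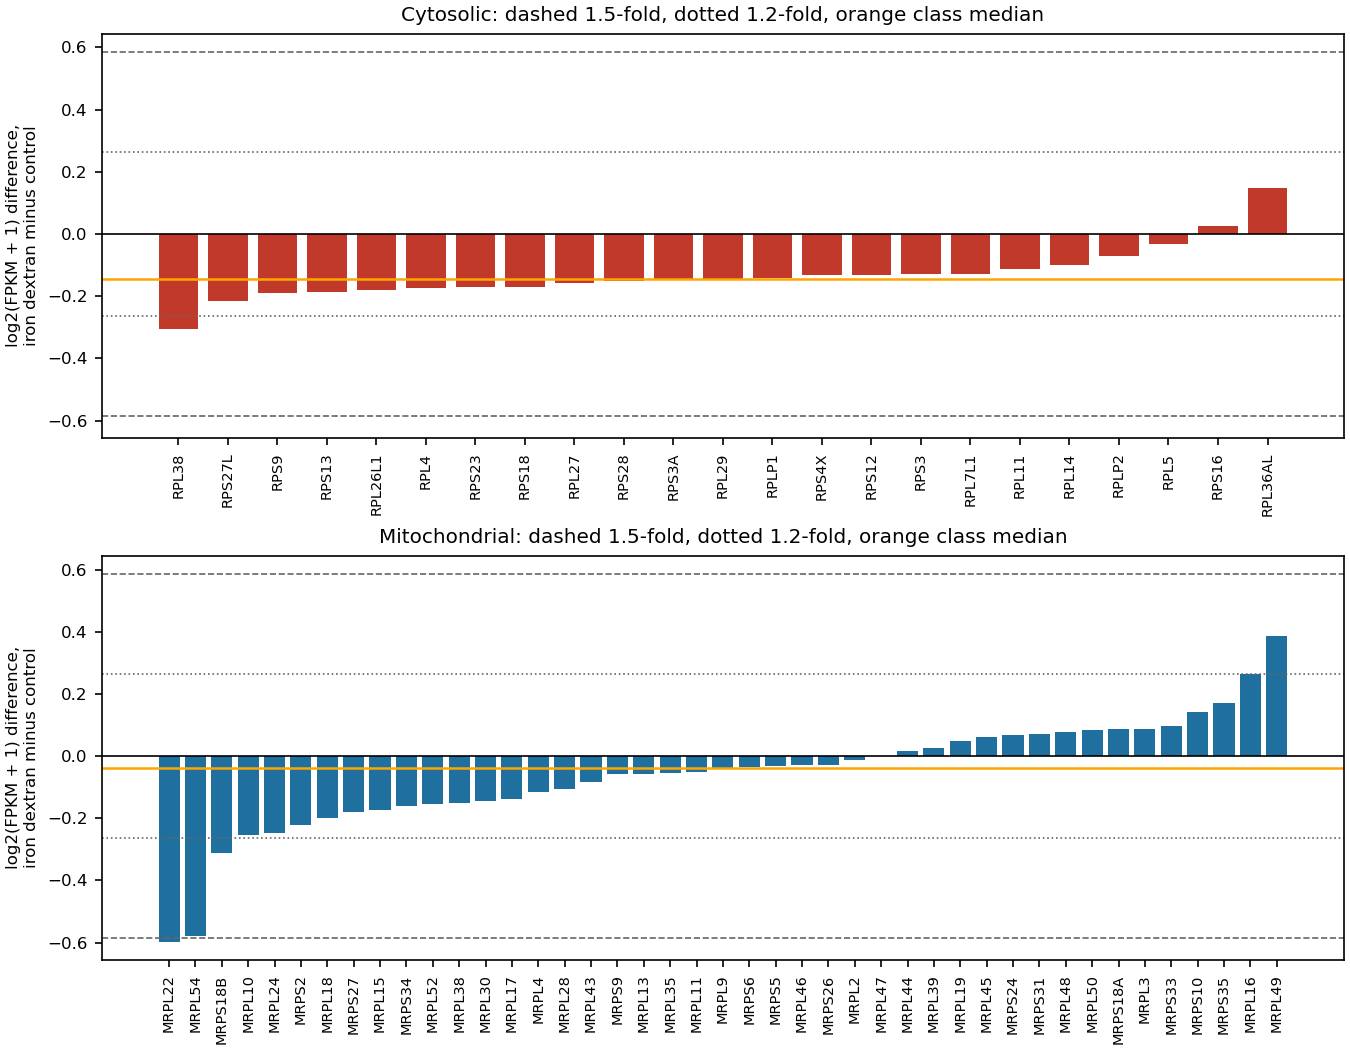
Bars give the difference of log2(FPKM + 1), iron dextran less control, of tested members of the cytosolic class (top, 23 of 26 genes drawn) and the mitochondrial class (bottom), with lines at 1.5-fold and 1.2-fold and at the class median. In the cytosolic class 21 of 23 bars point down, most at similar depth, with RPL38 lowest at −0.31; the mitochondrial bars run from −0.60 (MRPL22) to 0.39 (MRPL49).

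Among mitochondrial members MRPL22 and MRPL54, both of the large subunit, stood well below the rest. MRPL22 (ENSSSCG00000017065), whose bacterial relative lines the exit tunnel, had 31.0 FPKM in iron dextran and 47.4 in control, a ratio of 0.654. MRPL54 (ENSSSCG00000024242), a protein of the large mitochondrial subunit, had 9.97 FPKM in iron dextran and 15.4 in control, a ratio of 0.648. On the log2(FPKM + 1) scale MRPL22 (−0.60) lay just past 1.5-fold and MRPL54 (−0.58) just short of it, and with equal totals they had −0.48 and −0.47. In RefSeq's gene order for Sscrofa11.1, MRPL22 neighbours GEMIN5 (4.095 FPKM in iron dextran and 3.72 in control) and MRPL54 neighbours APBA3 (5.13 and 5.16), and neither neighbour shared its difference. MRPS18B, 1 of 3 relatives of a single bacterial protein, had 7.64 FPKM in iron dextran and 9.73 in control; its gene overlaps PPP1R10 there. MRPS18A, another of these relatives and a protein of the large subunit, had 23.2 FPKM in iron dextran and 21.8 in control, so the members of this small family lay on opposite sides of 0 as deposited; with equal totals MRPS18A had 0.20 and MRPS18B −0.20. MRPL55, a member below the limit on low values, had 0.574 FPKM in iron dextran and 0.912 in control.

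Several further members lay lower by less. MRPL10, which anchors the stalk of the large mitochondrial subunit, had 38.6 FPKM in iron dextran and 46.2 in control, and MRPL11, at the stalk base, had 30.6 and 31.7. MRPL24 had 77.9 FPKM in iron dextran and 92.7 in control, MRPL18 had 59.0 and 67.96, MRPS2 had 23.6 and 27.7, and MRPS27 had 23.9 and 27.3. Their differences ran from −0.25 (MRPL10) to −0.18 (MRPS27), apart from MRPL11 at −0.05, and these 5 stayed below 0 with equal totals. The most abundant mitochondrial members differed little. MRPL28 had 190.2 FPKM in iron dextran and 205 in control, MRPS26 had 120.03 and 123, and MRPL30 had 97.6 and 108. Their log2 differences were −0.10, −0.03 and −0.15 as deposited and 0.02, 0.09 and −0.03 with equal totals.

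At the other end, MRPL49 and MRPL16 were the mitochondrial members higher by 1.2-fold. MRPL49 (ENSSSCG00000013001), of the large subunit, had 26.1 FPKM in iron dextran and 19.7 in control, a ratio of 1.32. Its gene body overlaps those of FAU and SYVN1 in RefSeq's Sscrofa11.1 annotation. No source used here says whether counting used strand, so its value is uncertain. The same limit holds for other members that overlap a neighbour there, among them RPS28 (NDUFA7), RPS18 (VPS52), RPL29 (ACY1) and MRPL28 (TMEM8A). FAU itself, which encodes a ubiquitin-like protein fused to the small subunit protein eS30, had 27.2 FPKM in iron dextran and 29.98 in control. MRPL16 (ENSSSCG00000013118), a relative of a bacterial protein near the peptidyl transferase centre, had 27.5 FPKM in iron dextran and 22.7 in control. MRPS35 had 20.7 FPKM in iron dextran and 18.2 in control, MRPS10 had 41.7 and 37.7, and MRPS33 had 99.7 and 93.3. MRPL3 had 41.1 FPKM in iron dextran and 38.6 in control, and MRPL50 had 13.2 and 12.3. Of the 4 least abundant tested members, MRPL19 (7.16 FPKM in iron dextran and 6.88 in control), MRPL47 (8.504 and 8.499) and MRPL39 (10.1 and 9.92) were nearly level between the samples, and MRPS18B, given above, was not.

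The mitochondrial subunits had medians of −0.05 over 30 large subunit genes and −0.03 over 13 small subunit genes as deposited, and −0.01 and 0.06 after centring by level. As deposited, the 25 proteins listed with a relative in bacterial ribosomes had a lower median than the 18 tested proteins not so listed. Of the first, 19 lay below 0, with a median of −0.06, and of the second, 8 lay below 0, with a median of 0.0093. The second group holds MRPL47, which is itself related to a bacterial ribosomal protein, so the split is approximate. With equal totals the medians were 0.06 and 0.12, and after centring by level −0.02 and 0.02. Both groups spanned each other widely, since MRPL22 belongs to the first and both MRPL54 and MRPL49 to the second. Spearman's rho of levels between the samples was 0.981 across the 43 members.

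**Figure D4:**
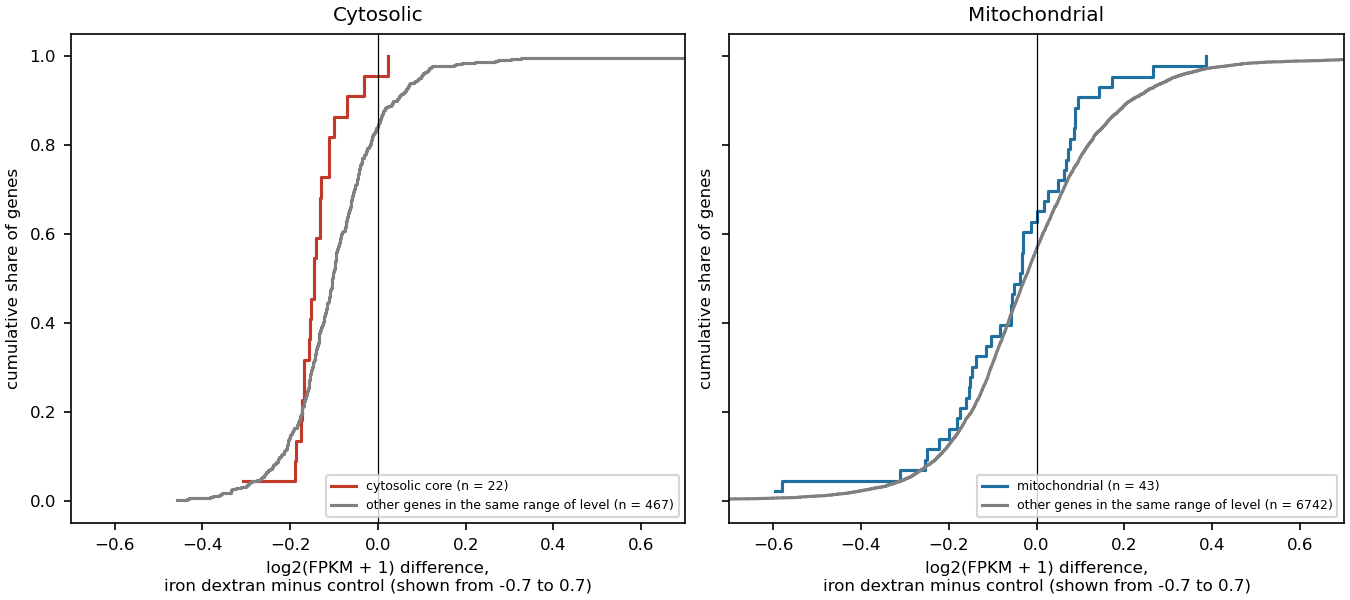
Cumulative share of genes by their difference of log2(FPKM + 1), iron dextran less control, for the 22 tested core cytosolic genes (left, red) and the 43 tested mitochondrial genes (right, blue), each with the other genes in the same range of level (grey; 467 and 6742 genes). The red line climbs steeply between −0.19 and −0.10, left of the grey line for most of its course, and the blue line stays close to the grey one.

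Ribosomal proteins with other names lay below 0 as deposited. RACK1, a scaffold on the head of the small cytosolic subunit, had 472 FPKM in iron dextran and 525 in control, a difference of −0.15. FAU had −0.14, and no ID was paired with RPS27A, whose protein is made fused to ubiquitin. For the mitochondrial ribosome, DAP3 had 3.24 FPKM in iron dextran and 4.08 in control, PTCD3 had 21.9 and 23.8, and CHCHD1 had 16.3 and 17.1. DAP3 had the lowest difference of the 3, −0.26. All 3 lay below 0 as deposited, with a median of −0.11, and with equal totals 2 of 3 lay above 0.

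The genes that assemble and serve cytosolic ribosomes had higher medians than the cytosolic ribosomal proteins, as deposited and with equal totals. They were also less abundant, with a median of 16.1 FPKM in iron dextran for ribosome biogenesis against 459 for cytosolic members. Centring by level narrowed the distances. The medians were then −0.03 for biogenesis, 0.0015 for initiation, 0.02 for elongation and termination and −0.0042 for cytosolic tRNA synthetases, against −0.05 for cytosolic members. Of 60 ribosome biogenesis genes listed, 46 were tested and 29 of these lay below 0, with a median of −0.02 (0.08 with equal totals). None was at least 1.5-fold lower or higher. FBL, which methylates ribosomal RNA, had 45.3 FPKM in iron dextran and 55.2 in control, and NOC2L had 10.6 and 13.6. NCL, the nucleolar protein nucleolin, had 2.63 FPKM in iron dextran and 1.88 in control, and NMD3, the export adaptor of the large subunit, had 5.896 and 4.67. Thus the 4 genes with the largest differences split evenly in direction. Of 26 tested initiation factors 18 lay below 0, with a median of −0.06 (0.06 with equal totals) and none past 1.5-fold. EIF4EBP1, which blocks the cap-binding protein eIF4E, had 17.5 FPKM in iron dextran and 21.3 in control, and EIF3D had 75.1 and 87.1. EIF2B4 and EIF2B3, subunits of the exchange factor that recharges eIF2, had 24.0 and 32.1 FPKM in iron dextran and 20.7 and 36.1 in control, so they lay on opposite sides of 0.

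The list of elongation and termination factors also holds RACK1, given above, and BTF3. Of its 9 tested genes 6 lay below 0, with a median of −0.06 (0.06 with equal totals) and none past 1.5-fold. EEF1D, an exchange factor of elongation, had 54.4 FPKM in iron dextran and 63.3 in control, EEF2, the translocase, had 586 and 625, and ETF1, which reads stop codons, had 27.2 and 28.97. Cytosolic tRNA synthetases load amino acids onto tRNA, and their list includes AIMP1 and AIMP2, scaffold proteins of the synthetase complex. Its 19 tested genes had a median of −0.0073 (0.11 with equal totals), with 10 below 0 and none past 1.5-fold. Among them KARS1 had 83.6 FPKM in iron dextran and 97.4 in control, CARS1 had 10.8 and 12.7, RARS1 had 35.6 and 39.5, and NARS1 had 51.1 and 45.4. Of 12 tested genes that signal to ribosomal protein mRNAs 6 lay below 0, with a median of 0.03 and none past 1.5-fold. That median was 0.14 with equal totals, −0.0083 after centring by level and −0.05 with the limit on mean FPKM at 5. MTOR had 11.9 FPKM in iron dextran and 12.9 in control, and LARP1 had 8.22 and 7.30. LARP4, a poly(A)-binding relative of LARP1, had 2.002 FPKM in iron dextran and 1.19 in control, PDCD4, an inhibitor of the helicase eIF4A, had 30.9 and 23.9, MYC, a transcription factor that drives ribosome production, had 7.69 and 6.06, and RPS6KA3 had 4.99 and 4.26. The 4 genes with the largest differences in this list were thus all higher in iron dextran.

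Factors of mitochondrial translation lay near 0. Of 23 tested, 10 lay below 0, with a median of 0.01 (0.11 with equal totals) and none past 1.5-fold. MTG1, a GTPase of mitochondrial ribosome assembly, had 15.4 FPKM in iron dextran and 20.9 in control, while GFM2, which takes the ribosome apart after termination, had 1.86 and 1.15. TUFM, the elongation factor that brings tRNA, had 67.2 FPKM in iron dextran and 77.1 in control, and LRPPRC, which stabilises mitochondrial mRNAs, had 16.9 and 14.3. The 14 tested mitochondrial tRNA synthetase genes had a median of 0.03 (0.12 with equal totals), with 5 below 0 and none past 1.5-fold; PARS2 had 3.47 FPKM in iron dextran and 2.81 in control, IARS2 had 12.3 and 10.7, VARS2 had 9.46 and 10.8, and SARS2 had 4.97 and 5.74. The 13 mitochondrially encoded messages that this ribosome translates lay lower as deposited than the messages of its proteins. Of the 13, 12 lay below 0, with a median of −0.14 (−0.02 with equal totals). ND3 was the exception, with 16741 FPKM in iron dextran and 16294 in control. The mitochondrially encoded messages were far more abundant, at 2251 FPKM or more in iron dextran. After centring by level their median was −0.04, against −0.01 for the mitochondrial members.

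**Figure D5:**
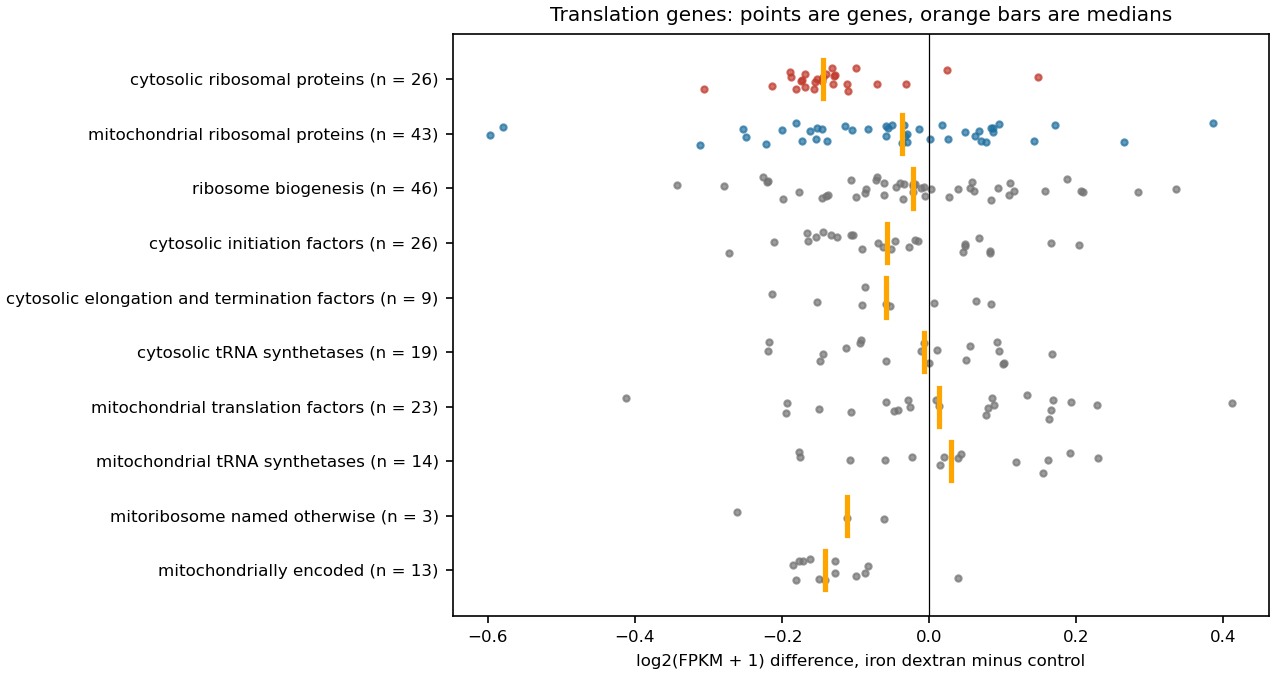
Difference of log2(FPKM + 1), iron dextran less control, for the 2 classes of ribosomal protein genes and 8 other lists; each point is a tested gene (vertical scatter has no meaning) and orange bars are medians. The cytosolic ribosomal proteins and the mitochondrially encoded genes have the lowest medians of the lists drawn, both −0.14, and the mitochondrial tRNA synthetases have a median of 0.03.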

How the data were processed

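FPKM values were deposited by the authors in 1 table with 1 column per sample, assigned by the letter shared with the sample title. Per the submitters' processing notes, cutadapt 1.2.1 and TopHat were used, with builds Sscrofa10.2 and susScr3; the program that computed FPKM, with its annotation and use of strand, is not given in the sources used here. Absolute depth is unknown; of 690 genes with low values, 195 had ratios within 0.05 log2 units of a common value, which, read as 1 fragment each, puts the depth of iron dextran at 1.06 times that of control. Symbols came from a table of Ensembl IDs. RefSeq's Sscrofa11.1 table gave the order of neighbouring genes, and no sequence was used.

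Differences of log2(FPKM + 1), iron dextran minus control, were computed over all genes with Python 3.11.15 and pandas 2.3.3; the pseudocount of 1 understates changes of low genes. Tested genes had a mean FPKM of 1 or more, and called means at least 1.5-fold. The computation was tested on simulated data. With 1 sample per group no p-value was made. Members, lists and alternatives were chosen with earlier results of these data known, and the ranges of level, the split by bacterial homology as a comparison and the look at neighbouring genes were added after the values had been seen. Named genes are, per class, the 8 members with the largest differences each way, the 4 highest and 4 lowest in level, members listed at 0, role lists (of 8 tunnel exit genes, none had an ID) and, per other list, the 4 with the largest differences. MTOR, LARP1 and ND3, and members outside that rule, were chosen after their values were seen; some genes that the rule takes are not reported here. Alternatives were other pseudocounts, limits, folds, scalings (trimmed mean of M values with 30% of M values and 5% of A values cut per side; 20 bins of level) and leaving out paralogs.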

Additional observations from a re-analysis of the deposited data

How the results depend on the processing

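No paired analysis was possible because each group was 1 sample. Pseudocounts of 0.1 and 0.01 and trimmed-mean scaling each put 2 mitochondrial members, in place of 1, past 1.5-fold; equal totals, with or without the mitochondrially encoded genes, centring by level and a fold of 2 left 0. At 1.2-fold the counts were 1 cytosolic and 5 mitochondrial. The cytosolic median was −0.025 with equal totals, −0.035 with equal totals without the mitochondrially encoded genes, −0.15 with trimmed-mean scaling and −0.0462 after centring by level. The mitochondrial median turned above 0 with equal totals (0.0776) and with equal totals without the mitochondrially encoded genes (0.0680), with 14 and 15 members below 0; it was −0.0440 with no filter on low values, −0.0463 with trimmed-mean scaling and −0.0139 after centring by level. The cytosolic minus the mitochondrial median was −0.10 with equal totals, −0.10 with no filter and −0.0323 after centring by level. Without the mitochondrially encoded genes in the total, the cytosolic share was 2.38% in iron dextran and 2.43% in control and the mitochondrial share 0.295% and 0.288%; without the 10 highest IDs the shares were 2.55% and 2.70%, and 0.317% and 0.321%, so the order of the mitochondrial shares turned. The other counts of members below 0 lay within 1.5 times those reported, with 19 of 26 cytosolic members at the lowest. Of 7 other translation lists, 4 medians changed sign with equal totals, 4 after centring by level and 2 with the limit on mean FPKM at 5. The causes were not tested. Unknown depth leaves the counting error of low members such as MRPL54 and RPS27L unstated.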
